A study of Arabidopsis thaliana with 44 samples.

Results

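STZ, WRKY53, CML38, AT4G27652, AT4G29780, AT3G02840 and AT3G10930 are 7 Arabidopsis genes whose messenger RNA stood out in wild-type (WT) seedlings hours after irradiation with fast iron nuclei. They were chosen by their log2 differences after that radiation on these same arrays, so their levels there are described and not tested. Each gene had 1 probe set annotated to it alone, and the 7 genes are among 13355 genes measured. STZ (AT1G27730, also called ZAT10) encodes a C2H2 zinc finger transcription factor of salt, cold and oxidative stress. WRKY53 (AT4G23810) encodes a WRKY transcription factor of leaf senescence and defence, and CML38 (AT1G76650) a calmodulin-like calcium-binding protein. The other 4 have only a locus code in the gene table used, and no role is given to them here.

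Plants answer touch, wounding, pathogen molecules, cold and oxidative stress with a burst of calcium and reactive oxygen, followed within minutes to hours by transcripts of zinc finger and WRKY factors and of calmodulin-like proteins. STZ is known as a repressor that tunes the expression of other stress genes, and WRKY53 as a regulator whose own transcript responds quickly to hydrogen peroxide. ATM is a protein kinase activated by broken DNA that sets repair and cell cycle responses going, and atm-1 is a mutant of it.

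Messenger RNA of whole seedlings was measured on 44 single-colour Affymetrix arrays in 22 groups of 2. Seedlings of both genotypes, 5 days old, were exposed to gamma rays (100 Gy) or to HZE (30 Gy), here iron nuclei accelerated to near light speed, whose damage is packed along their tracks. Dose rates were 7 Gy per min for gamma and 2.5 Gy per min for HZE. Plants grew at 21 C with 16 h of light, and the hours at which lights were on are not stated here. WT plants were harvested at 5 times after each radiation (1.5, 3, 6, 12 and 24 h) and atm-1 plants at 4 of these, without 3 h. Unirradiated plants of both genotypes were harvested on day 1 (10:45 am) and day 2 (9:15 am), and the 24 h groups and day 2 controls were 6 days old. Gamma groups were sampled at 10:10 and 11:40 am and 2:55 and 8:40 pm on day 1, and at 8:40 am on day 2. HZE groups were sampled at 2:39, 4:09 and 7:24 pm on day 1, and at 1:09 am and 1:09 pm on day 2. Groups up to 12 h were set against day 1 controls and those at 24 h against day 2 controls. Differences from control in the gamma groups at 6 and 12 h and in all HZE groups therefore hold radiation and hours of clock time together, and the 2 cannot be told apart there. Clock time was equal in WT and atm-1 wherever radiation and time after it were equal.

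Each array held RNA pooled from about 30 to 40 plants. The labels do not say that replicates were separate cultures, so p-values measure the spread between these samples, which may be technical. HZE was given in 2 runs, and which replicate came from which run is not stated. Array medians ran from log2 5.73 to 5.98 and replicates correlated at 0.989 to 0.997 across genes. ATM had no probe set annotated to it alone, and the mutation could not be verified on its own transcript. Of the listed markers of green tissue and root 3 were measured, with arrays at log2 9.21 to 12.56 for LHCB4.2, a light-harvesting protein of green tissue, and at log2 5.01 to 6.36 and 4.42 to 5.98 for the root hair expansins EXPA7 and EXPA18. In bulk tissue, more cells with a transcript and more RNA per cell cannot be told apart.

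Unirradiated WT on day 1 held the 7 transcripts at or near the bottom of their range. STZ stood at log2 6.77 and 6.14 on the 2 arrays, WRKY53 at 4.52 and 4.56, and CML38 at 5.29 and 5.13. AT4G27652 stood at 4.55 and 4.63, AT4G29780 at 5.89 and 5.68, AT3G02840 at 3.57 and 3.43, and AT3G10930 at 3.09 and 2.93. For AT4G27652, AT3G02840 and AT3G10930 this was the lowest of the 22 group means.

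In WT controls of day 2, 1 day older and sampled 1.5 h earlier on the clock, most of the genes stood far higher without any irradiation. STZ was at 9.68 and 8.63, CML38 at 8.14 and 6.83, and AT4G27652 at 9.47 and 8.36. AT4G29780 was at 9.27 and 7.80, AT3G02840 at 4.67 and 3.72, and AT3G10930 at 4.90 and 4.02. The day 2 means exceeded those of day 1 by log2 4.33 for AT4G27652, 2.75 for AT4G29780, 2.70 for STZ, 2.27 for CML38, 1.44 for AT3G10930 and 0.70 for AT3G02840. WRKY53 did not share this, with day 2 arrays at 4.30 and 4.59 and a difference of -0.10. By limma's moderated test (adjusted p under 0.05) 5 of 7 genes were called higher on day 2, beside 1350 of all 13355 genes. AT3G02840 and WRKY53 were not called. The day 1 control was part of the differences that chose the genes, so this count is not independent of the choice. In every gene but WRKY53, replicate 1 of the WT day 2 control was the higher array, by 0.88 to 1.47.

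The day 2 controls of atm-1 did not show higher levels than those of day 1. STZ in atm-1 stood at 7.08 and 6.54 on day 1 and at 6.78 and 4.86 on day 2, and AT4G27652 at 5.77 and 6.69 on day 1 and at 7.04 and 5.17 on day 2. Day 2 minus day 1 lay between log2 -0.99 for STZ and 0.01 for AT3G02840. Replicate 1 was again the higher array of the atm-1 day 2 control, in all 7 genes.

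Over both days, unirradiated atm-1 plants were set against WT with limma's moderated test, adjusted by Benjamini-Hochberg over all genes and called at an adjusted p under 0.05. STZ was lower in atm-1 by log2 1.49 (SE 0.33, adjusted p = 0.0142) and was the only member of the 7 called, where 0.839% of all genes were called lower. The difference rested on day 2. With day 1 alone limma called 0 members (1.15% of genes lower), 1 had an unadjusted p under 0.05, AT4G27652, which was higher in atm-1, and STZ was 0.35 higher in atm-1. Taking day 2 alone, STZ was lower by log2 3.34 (limma adjusted p = 8.88e-05), CML38 by 2.33 (0.00145), AT4G27652 by 2.81 (0.00583) and AT4G29780 by 3.17 (0.00279), which are 4 of 7 members against 0.457% of genes. The days were separated after the data were seen. The STZ call over both days was lost in turn without WT control day 1 replicate 1, WT control day 2 replicate 1, atm-1 control day 1 replicate 2 or atm-1 control day 2 replicate 2 (adjusted p 0.078 to 0.126 in limma).

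After HZE in WT, all 7 genes were far above the day 1 control at 6 and 12 h, by a median of log2 5.29 and 4.61. These are the differences that chose them, so no test is given, and the standard error of such a difference between groups of 2 arrays was 0.28 for WRKY53 to 0.57 for AT4G29780. The 12 h group was sampled on day 2. With controls of both days pooled, the 6 and 12 h medians were 4.03 and 3.52. Among the transcription factor genes, STZ stood at 9.21 and 9.15 after 1.5 h, 9.10 and 8.61 after 3 h, 11.97 and 11.73 after 6 h, 11.41 and 11.33 after 12 h, and 10.99 and 10.90 after 24 h. Its arrays were above both controls from 1.5 h on, with the highest level at 6 h. WRKY53 stood at 4.68 and 4.42 after 1.5 h, around its controls, then at 5.93 and 5.73 after 3 h, 9.17 and 8.51 after 6 h, 7.93 and 7.49 after 12 h, and 6.50 and 5.83 a day after. WRKY53 thus exceeded its control by 0.01 at 1.5 h, 1.29 at 3 h and 4.30 at 6 h, later than STZ, which exceeded its own by 2.72, 2.40 and 5.39.

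CML38 was high from the earliest sampling. Its arrays read 8.78 and 8.36 after 1.5 h, 8.98 and 8.78 after 3 h, 10.10 and 9.76 after 6 h, 9.22 and 9.66 after 12 h, and 9.31 and 8.76 after 24 h. It stood above the day 1 control by log2 3.35 at 1.5 h and by 4.72 at 6 h, the smallest gap between those times among the 7 genes.

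The 4 genes without a name followed different courses. AT4G27652 stood at 8.41 and 7.38 after 1.5 h, 7.17 and 6.84 after 3 h, 10.29 and 9.81 after 6 h, 9.92 and 10.18 after 12 h, and 9.70 and 9.27 after 24 h, so its level was lower at 3 h than at 1.5 h before the high point. AT4G29780 shared that dip, at 7.81 and 6.77, then 6.50 and 6.25, then 11.35 and 10.81 after 6 h, 10.59 and 10.87 after 12 h, and 10.93 and 10.46 after 24 h. AT3G02840 resembled WRKY53 in being late, with a mean of 4.07 at 1.5 h and arrays at 4.33 and 4.37 after 3 h, 9.43 and 8.15 after 6 h, 8.21 and 8.01 after 12 h, and 7.51 and 6.59 after 24 h. AT3G10930 was early and high like CML38, at 6.24 and 5.92, 6.14 and 5.45, 7.93 and 7.60, 7.27 and 7.24, and 6.54 and 5.98 at the 5 times in order. The mean at 24 h minus that at 6 h was -1.74 for AT3G02840, -1.51 for AT3G10930, -0.56 for AT4G27652 and -0.38 for AT4G29780, and of these 4 genes the arrays overlapped only in AT4G29780.

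Both HZE arrays lay above both control arrays for 6 of 7 genes at 1.5 and 24 h and for 7 at the times between. The same held for 33%, 34.8%, 26.6%, 27.5% and 20.4% of all genes, and nothing is read from the members' counts because these differences chose them. The mean at 24 h minus that at 12 h was log2 -1.54 for WRKY53 and -1.06 for AT3G02840, and AT3G10930 went from 7.26 to 6.26, with no overlap of arrays in any of these. For the other 4 genes it was between -0.56 and -0.03. The differences from the day 2 control at 24 h ran from 0.57 for AT4G27652 to 2.85 for AT3G02840.

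**Figure D1:**
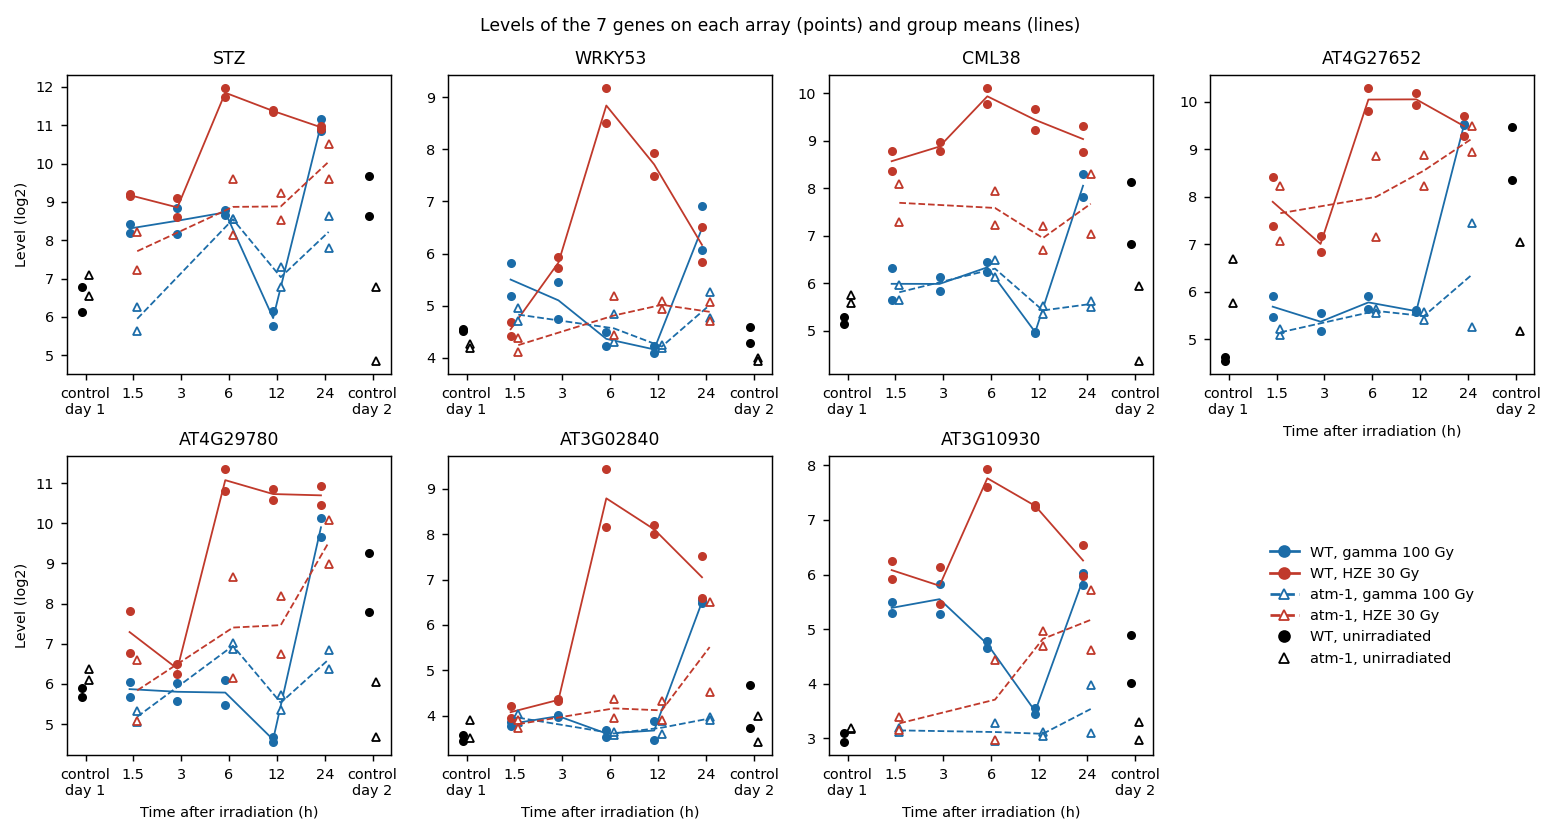
Levels (log2) of the 7 genes on every array (points) by time after irradiation in hours, with lines through group means: filled circles and solid lines are WT, open triangles and dashed lines atm-1, blue gamma, red HZE and black the unirradiated controls of day 1 (left) and day 2 (right). WT HZE at 6 h is the highest group for 6 genes, and the WT day 2 control lies above the day 1 control for all genes but WRKY53.

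In atm-1 after HZE, the same genes were below their WT levels at 6 and 12 h and nearer to them at 1.5 and 24 h, except that AT3G10930 was further from WT at 1.5 h than at 12 h, by 2.81 against 2.44. STZ stood at 8.21 and 7.22 after 1.5 h, 9.60 and 8.14 after 6 h, 9.23 and 8.54 after 12 h, and 10.51 and 9.59 after 24 h. WRKY53 stayed between 4.12 and 5.19 on all 8 atm-1 HZE arrays. CML38 stood at 8.10 and 7.29, 7.95 and 7.22, 7.21 and 6.69, and 8.31 and 7.04 at the 4 times. CML38 and STZ were thus above their controls early in the mutant as well, whereas WRKY53 had no array near its WT level at 6 h.

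Of the unnamed genes in atm-1, AT4G27652 stood at 8.23 and 7.08 after 1.5 h, 8.85 and 7.15 after 6 h, 8.89 and 8.22 after 12 h, and 9.49 and 8.95 after 24 h. AT4G29780 stood at 6.59 and 5.08, 8.67 and 6.14, 8.19 and 6.74, and 10.07 and 8.98. AT3G02840 stood at 3.90 and 3.72, 4.37 and 3.94, 4.32 and 3.91, and 6.50 and 4.52. AT3G10930, which was high in WT at 1.5 h, was at its control level in atm-1 at that time, with arrays at 3.40 and 3.15, and stood at 4.44 and 2.98 after 6 h, 4.96 and 4.68 after 12 h and 5.71 and 4.62 after 24 h.

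The median difference of the 7 genes from the atm-1 control was log2 0.11 at 1.5 h, 1.18 at 6 h, 1.29 at 12 h and 2.51 at 24 h. Both HZE arrays were above both controls for 3, 5, 7 and 7 members, beside 36%, 30.1%, 28.1% and 16.8% of all genes. The 6 h median was 0.25 without replicate 1 of the atm-1 HZE 6 h group and 2.28 without replicate 2, since every gene was higher in replicate 1 there, by 0.43 to 2.53.

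Set directly against atm-1 at the same time after HZE, WT was higher by log2 2.05 to 4.64 at 6 h, with AT4G27652 lowest and AT3G02840 highest, and by 1.50 to 4.00 at 12 h. The differences ran from 0.24 to 2.81 at 1.5 h, where AT3G10930 stood apart, and from 0.27 to 1.54 at 24 h. Both WT arrays lay above both atm-1 arrays for 6, 7, 7 and 6 members at the 4 times in order, beside 21.1%, 18.6%, 28.4% and 21.8% of all genes. These values include the HZE arrays used in choosing the genes and carry no test.

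The gamma-irradiated arrays are not those whose HZE differences led to the choice, but the genes were chosen with earlier results of these data known. The control arrays are shared with the HZE differences, and a low control raises a gene's difference after either radiation. For AT4G27652, AT3G02840 and AT3G10930 the WT day 1 control was the lowest group mean. The gamma tests against control are therefore not independent of the choice. In WT, STZ and AT3G10930 rose at 1.5, 3, 6 and 24 h, WRKY53 at 1.5 and 24 h, CML38 at 6 h and AT3G02840 at 24 h, while AT4G27652 and AT4G29780 were not called at any time. At 1.5 h STZ stood at 8.18 and 8.43, against 6.77 and 6.14 in controls, a rise of log2 1.85 or 3.60-fold (SE 0.46, limma adjusted p = 0.00436). AT3G10930, at 5.29 and 5.49 against 3.09 and 2.93, rose by log2 2.37 or 5.19-fold (SE 0.34, limma adjusted p = 4.17e-06). WRKY53, at 5.82 and 5.18 against 4.52 and 4.56, rose by 0.97 (limma adjusted p = 0.0143). No array of these 3 genes overlapped its controls. Both gamma arrays lay above both controls for 6 of 7 members. The share of all genes for which this held is not given, so nothing is read from that count. Called by limma at 1.5 h were 3 of 7 members, where 8.3% of all genes were called higher.

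At 3 h AT3G10930 stood at 5.82 and 5.28, higher by log2 2.53 (limma adjusted p = 1.65e-06), and STZ at 8.85 and 8.17, higher by 2.05 (0.00169), which are 2 of 7 members against 7.29% of genes. At 6 h STZ stood at 8.66 and 8.80, higher by 2.27 (limma adjusted p = 0.000318), AT3G10930 at 4.66 and 4.79, higher by 1.71 (0.000254), and CML38 at 6.44 and 6.23, higher by 1.12 (0.0364), which are 3 of 7 against 11.8%. By 12 h limma called none of the 7, and AT4G29780 was the 1 gene with an unadjusted p under 0.05. Differences ran from -1.17 for AT4G29780 to 1.00 for AT4G27652, where 13.6% of genes were called higher. STZ stood at 6.16 and 5.77 then and AT4G29780 at 4.67 and 4.56, and for CML38 and AT4G29780 this was the lowest of the 22 group means.

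In contrast to 12 h, all 7 genes stood high in WT at 24 h. STZ stood at 11.16 and 10.86 after 24 h, WRKY53 at 6.91 and 6.06, and CML38 at 8.29 and 7.81. AT4G27652 stood at 9.53 and 9.52, AT4G29780 at 10.14 and 9.66, AT3G02840 at 6.47 and 6.54, and AT3G10930 at 6.03 and 5.80. Against the day 2 control, which was also high, 4 of 7 genes were called, where 14.1% of all genes were called higher. AT3G02840 rose by log2 2.31 or 4.96-fold (SE 0.39, limma adjusted p = 1.63e-05) and WRKY53 by 2.05 or 4.13-fold (SE 0.28, limma adjusted p = 6.94e-07). STZ rose by 1.85 (limma adjusted p = 0.00192) and AT3G10930 by 1.46 (0.00105). AT4G29780 differed by 1.37 (limma adjusted p = 0.07), AT4G27652 by 0.60 and CML38 by 0.56, none of which passed.

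Some of these calls rested on single arrays. Among the 1.5 h calls, STZ was lost when either replicate 2 of the gamma group or replicate 2 of the control was left out (limma adjusted p 0.0518 and 0.0733), the latter leaving 1 member called. WRKY53 was lost there without replicate 1 of the gamma group or either day 1 control (adjusted p up to 0.215), and CML38 at 6 h whichever of its 4 arrays was left out. STZ and AT3G10930 were lost at 24 h without WT control day 2 replicate 2 (0.0801 and 0.0644), which left 2 members called. With controls of both days pooled, STZ was not called at 1.5, 3 or 6 h and all 7 genes were called at 24 h. With only the arrays compared in the fit 5, 4 and 4 genes were called in either direction at 1.5, 3 and 12 h. The share of all genes called under these settings is not given, and nothing is read from these counts. The clock-controlled genes GI and CCL moved in the same groups. In WT GI stood at 7.99 against 6.80 in controls at 1.5 h and at 8.03 against 6.91 at 24 h, and CCL was lower than in controls by log2 1.89 and 3.67 (all called by limma). In atm-1 GI was higher by 0.91 and 0.87 and CCL lower by 0.74 and 3.42 at these times, all called as well.

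**Figure D2:**
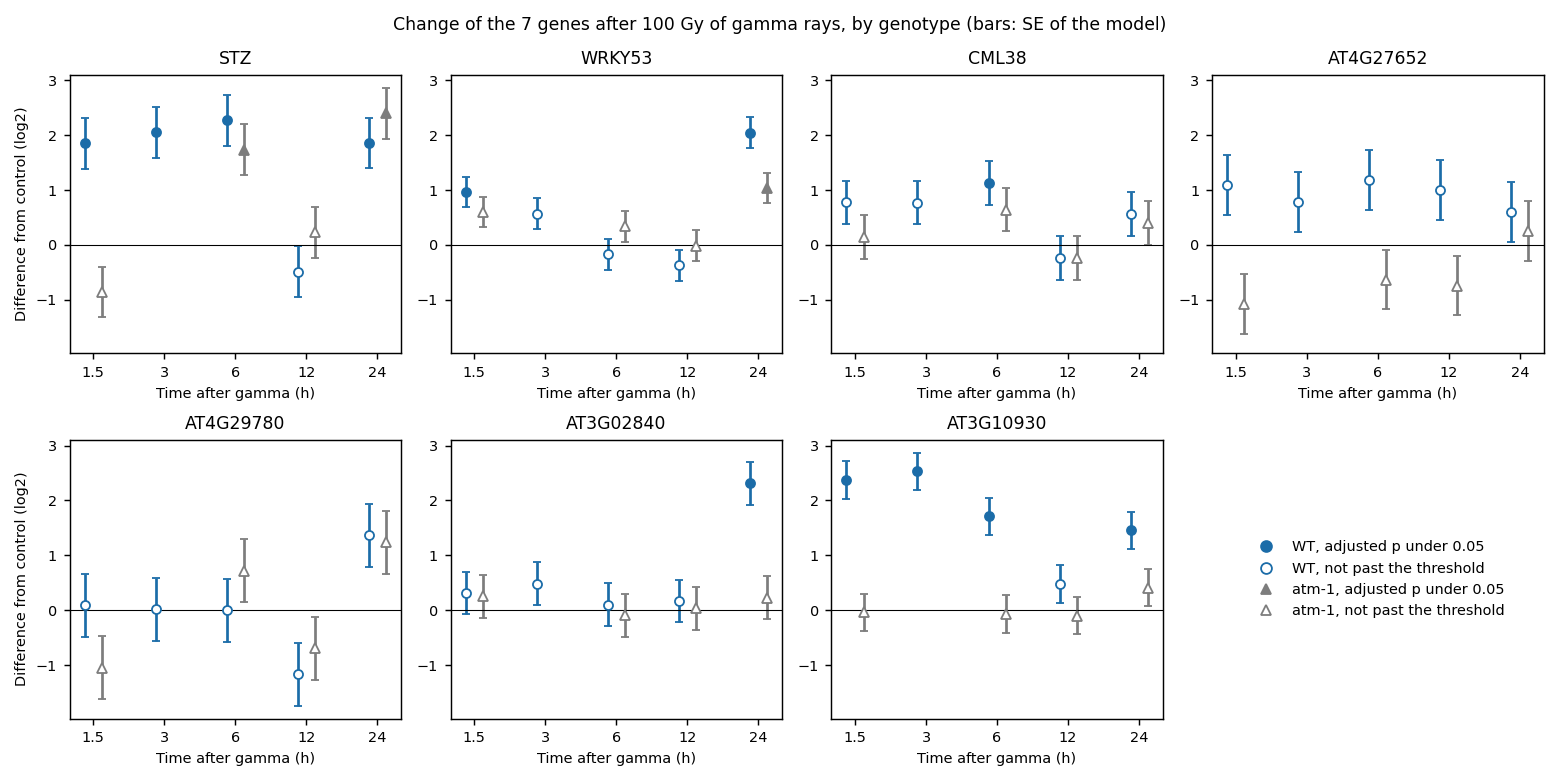
Log2 difference of each gene from the unirradiated control of its genotype by time after gamma irradiation in hours, with bars of 1 SE of the model; circles are WT, triangles atm-1, and filled symbols passed an adjusted p under 0.05. STZ and AT3G10930 lie between 1.85 and 2.53 in WT at 1.5 and 3 h, and in atm-1 only STZ at 6 and 24 h and WRKY53 at 24 h passed.

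In gamma-irradiated atm-1 the early rise of STZ and AT3G10930 was not seen. At 1.5 h STZ stood at 5.64 and 6.27, below its controls at 7.08 and 6.54, and AT3G10930 at 3.11 and 3.18, level with its controls at 3.17 and 3.20. None of the 7 members was called by limma at 1.5 h, where 2.96% of genes were called higher, and 1 had an unadjusted p under 0.05, WRKY53, at 4.71 and 4.95, above both of its controls. WRKY53 differed there by 0.60, and its change was not shown to differ between the genotypes (0.36 larger in WT, limma adjusted p = 0.72). By 6 h STZ, at 8.55 and 8.54, had risen by log2 1.74 or 3.33-fold (SE 0.46, limma adjusted p = 0.0057), the only member of the 7 called, against 7.54% of genes. That call was lost without atm-1 control day 1 replicate 2 (limma adjusted p = 0.0815).

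At 12 h limma called none of the members in atm-1, against 11.4% of genes, and 0 had an unadjusted p under 0.05. With only the arrays compared in the fit 4 members were called in either direction at 1.5 h and 2 at 12 h, without a share of all genes beside them. At 24 h STZ, at 7.80 and 8.64, was higher than the atm-1 day 2 control by log2 2.40 or 5.27-fold (SE 0.46, limma adjusted p = 0.000135). WRKY53, at 5.26 and 4.77, was higher by 1.04 (limma adjusted p = 0.00471), a call lost without atm-1 gamma 24 h replicate 1 (0.104). These are 2 of 7 members against 12.8% of genes, and the count was 4 when atm-1 control day 2 replicate 1 was left out and 1 when atm-1 gamma 24 h replicate 1 was. The remaining 5 genes differed by 0.23 to 1.24, and AT4G27652 spread from 5.27 to 7.45 between its 2 arrays.

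WT and atm-1 were then compared directly at each time after gamma, a difference of means that uses no HZE or control array and holds clock time equal, although its standard error comes from the spread within all 22 groups. At 1.5 h WT exceeded atm-1 by log2 2.35 in STZ (5.11-fold, SE 0.46, limma adjusted p = 0.000625) and by 2.24 in AT3G10930 (4.74-fold, SE 0.34, limma adjusted p = 1.8e-05), which are 2 of 7 members against 4.5% of genes. At 6 h STZ differed by less than its standard error, and of the 7 only AT3G10930 was called higher in WT, by 1.61 (limma adjusted p = 0.00172), against 8.04% of genes. At 12 h limma called 0 of 7, against 1.13% of genes, and 1 had an unadjusted p under 0.05, STZ, which was lower in WT. With only the arrays compared in the fit 2 and 4 members were called in either direction at 6 and 12 h, without a share of all genes beside them.

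At 24 h after gamma all 7 members were higher in WT than in atm-1, where 1.98% of all genes were. The difference was log2 3.29 for AT4G29780 (9.81-fold, SE 0.57, limma adjusted p = 0.000399), 3.16 for AT4G27652 (8.96-fold, adjusted p = 0.00036) and 2.79 for STZ (6.93-fold, adjusted p = 0.000203). AT3G02840 was higher by 2.57 (limma adjusted p = 6.12e-05), CML38 by 2.49 (0.000138), AT3G10930 by 2.38 (3.1e-05) and WRKY53 by 1.47 (0.00127). No WT array overlapped an atm-1 array in any of the 7 genes. The share of all genes for which this held is not given here. After HZE, both WT arrays lay above both atm-1 arrays for 18.6% to 28.4% of all genes. Without WT gamma 24 h replicate 1 the WRKY53 difference was 1.05 (limma adjusted p = 0.148), and without atm-1 gamma 24 h replicate 1 that of AT4G27652 was 2.07 (adjusted p = 0.0829). CCL was lower in WT than in atm-1 by 1.18 at 1.5 h and 0.83 at 24 h after gamma.

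The genotypes also differed in unirradiated plants of that day, as given above, so the change from control in WT minus the change from control in atm-1 was also tested. At 24 h it was -0.54 for STZ, 1.01 for WRKY53, 0.16 for CML38, 0.35 for AT4G27652, 0.13 for AT4G29780, 2.08 for AT3G02840 and 1.05 for AT3G10930, and limma called 0 of 7 members, against 0.112% of genes, while 3 had an unadjusted p under 0.05. At 1.5 h it was larger in WT by log2 2.71 for STZ (SE 0.65, limma adjusted p = 0.00885) and 2.41 for AT3G10930 (SE 0.48, limma adjusted p = 0.00156), 2 of 7 members against 2.4% of genes. At 6 h it was 1.78 for AT3G10930 (SE 0.48, limma adjusted p = 0.0232), 1 of 7 against 4.04%. At 12 h limma called 0 of 7 against 0.449% of genes, and 1 had an unadjusted p under 0.05.

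**Figure D3:**
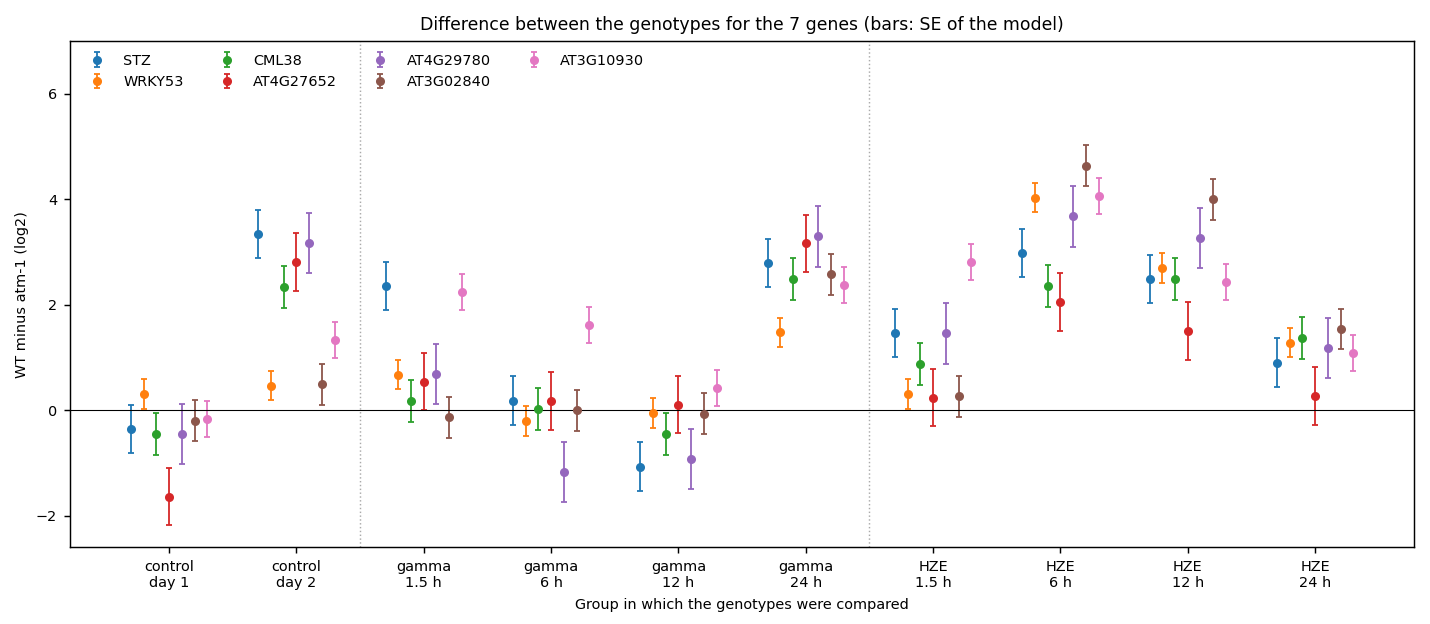
WT minus atm-1 (log2) for the 7 genes, 1 colour each, in unirradiated plants of both days, at 4 times after gamma and at 4 times after HZE, with bars of 1 SE of the model. At gamma 24 h all genes lie between 1.47 and 3.29, and in the unirradiated day 2 group STZ, CML38, AT4G27652 and AT4G29780 lie between 2.33 and 3.34.

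HZE and gamma groups sampled at nearly the same clock time can be set side by side, at unequal doses, dose rates and times after irradiation. HZE 1.5 h (2:39 pm) and gamma 6 h (2:55 pm) in WT differed by log2 2.23 for CML38, 2.12 for AT4G27652, 1.51 for AT4G29780 and 1.36 for AT3G10930, and by 0.18 to 0.47 for WRKY53, STZ and AT3G02840. Both HZE arrays were above both gamma arrays for 6 of 7 members, against 36.2% of genes. HZE 6 h (7:24 pm) and gamma 12 h (8:40 pm) in WT differed by 4.27 for AT3G10930 to 6.46 for AT4G29780, with 7 of 7 members not overlapping against 25.4% of genes. In atm-1 the 6 h and 12 h groups differed by 0.43 to 2.51 (6 of 7 members, 31.9% of genes) and the 1.5 h and 6 h groups by -1.11 to 2.06 (3 of 7 members, 33.1%). All these values include HZE arrays used in choosing the genes, so they carry no test and nothing is read from the members' counts.

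Across the 22 groups the means of each gene spanned log2 4.75 (AT3G10930) to 6.46 (AT4G29780), in each case more than in at least 99.4% of all genes. WT HZE 6 h was the highest group for 6 genes, and for AT4G27652 it and WT HZE 12 h were level at 10.05. These groups are among those that chose the genes, so the wide spans and the top rank follow from the choice. For STZ the order ran from WT HZE 6 h (11.85) through WT HZE 12 h (11.37), WT gamma 24 h (11.01), WT HZE 24 h (10.95) and atm-1 HZE 24 h (10.05) down to atm-1 control day 2 (5.82). Of its 21 pairs of neighbours in that order 5 did not overlap, and WT gamma 24 h and WT HZE 24 h were among those that did. For WRKY53 the 3 highest groups were WT HZE 6 h (8.84), WT HZE 12 h (7.71) and WT gamma 24 h (6.49), the highest 2 of which overlapped with no neighbour, and 18 of 21 pairs overlapped. CML38 had its 5 highest groups in WT after HZE, from 9.93 at 6 h to 8.57 at 1.5 h, and its lowest at WT gamma 12 h (4.97). In AT4G27652 and AT4G29780 the WT day 2 control, at 8.92 and 8.54, ranked sixth of the 22 groups. Among the 7 genes 2 to 5 of the 21 neighbouring pairs did not overlap, so most groups were not separated by their arrays from the next in the order. This does not speak to groups further apart in it, and the share of such pairs over all genes is not given.

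The 7 genes also varied more between replicates than most genes. Their residual standard deviation was 0.32 for WRKY53 to 0.66 for AT4G29780, beside a median of 0.13 over all genes, and was larger than in at least 99% of genes. In the 9 HZE groups replicate 1 was the higher array in all 9 for STZ, WRKY53 and AT3G10930 and in 8 for the other 4 genes. Of all genes, 3.17% had replicate 1 higher in at least 8 HZE groups. All 7 members were higher in replicate 1 in 7 of 9 HZE groups, in 0 of 9 gamma groups and in 1 of 4 control groups, the atm-1 control of day 2. Whether the replicate numbers follow the 2 HZE runs is not stated, and its part in these differences was not tested. The widest gaps were in atm-1 HZE 6 h, with a median of 1.46.

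**Figure D4:**
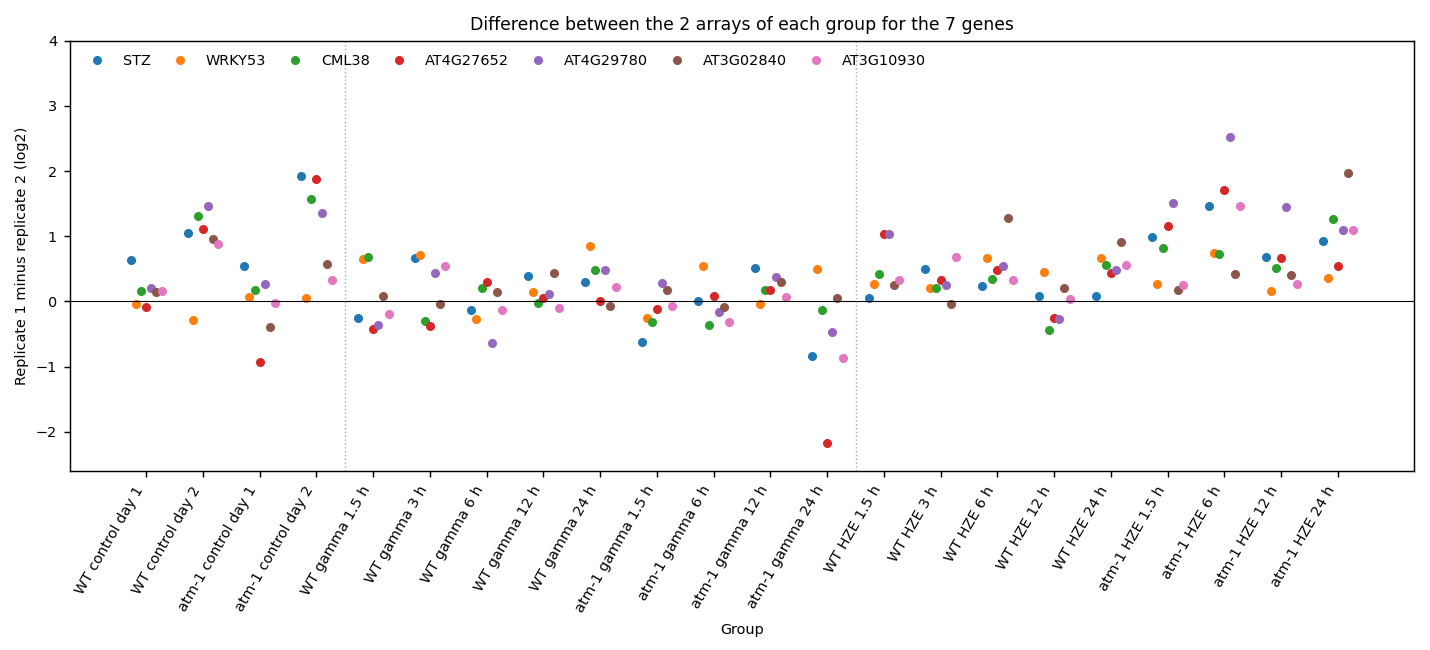
Replicate 1 minus replicate 2 (log2) for the 7 genes, 1 colour each, in each of the 22 groups, ordered as controls, gamma and HZE. In the HZE groups most points are above 0, by up to 2.53 in atm-1 HZE 6 h.

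The members were chosen by HZE groups in which all are high, which by itself raises the likeness of their profiles. Pearson's r between the 22 group means ran from 0.65 to 0.92 over the 21 pairs of genes, with a median of 0.82, where all points share the same arrays. Over the 13 groups without HZE it ran from 0.48, for WRKY53 and AT4G27652, to 0.91, with a median of 0.74. The differences between the 2 arrays of a group also ran together for 6 of the genes, with r from 0.29 to 0.77 over their 15 pairs. WRKY53 was apart, with r from -0.13 to 0.13 in its 6 pairs with the others.

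The genes outside the 7 whose group means were most like the members' mean profile were AT1G74450 (r = 0.96), AT3G04640 (0.96), AT2G41640 (0.95), TET8 (0.94), a tetraspanin membrane protein gene, and AT1G35210 (0.94). AT5G66070, AT5G42050, AT4G27654, AT2G25250 and AT5G47070 followed at 0.92 to 0.93, over 22 groups and among 5223 genes with a span of at least 1 log2 unit. AT1G74450 stood at 7.15 in the WT day 1 control, 8.64 in that of day 2, 10.22 at HZE 6 h and 9.51 at gamma 24 h in WT, and at 7.57 and 7.78 in the same irradiated groups of atm-1. AT4G27654, which lies next to AT4G27652 in the gene table, was the nearest gene both to AT4G27652 (r = 0.95) and to AT4G29780 (0.96), and stood at 4.13 in the WT day 1 control and 8.50 at WT HZE 6 h. By the same measure AT4G32020 was nearest to STZ (0.95), AT3G01830 to WRKY53 (0.94), AT2G36220 to CML38 (0.95), AT5G52050 to AT3G02840 (0.95) and AT5G65300 to AT3G10930 (0.94). AT4G29780 was among the 3 nearest of STZ and AT3G02840 among the 3 nearest of WRKY53.

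**Figure D5:**
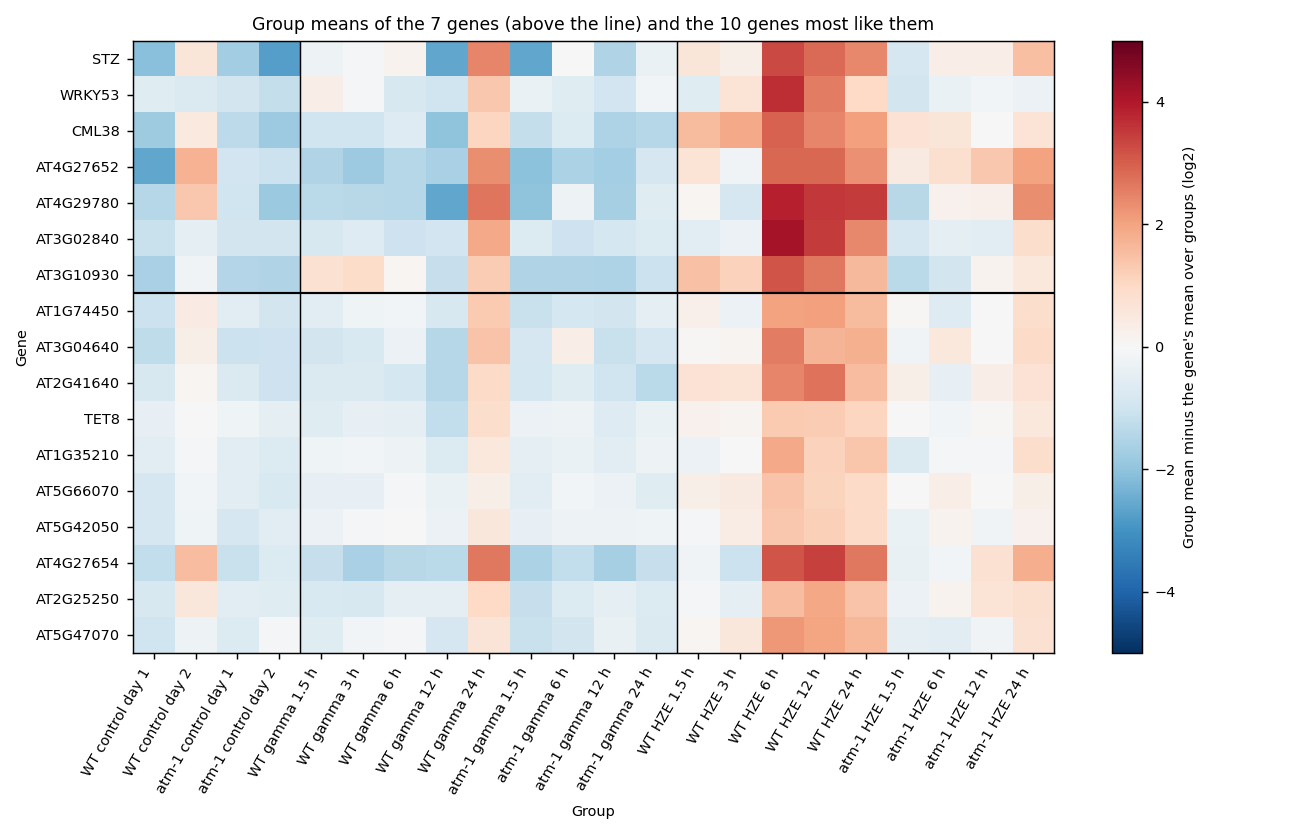
Group means of the 7 genes (above the black line) and of the 10 genes most like their mean profile (below), each minus its own mean over the 22 groups, on a log2 colour scale with red high. Groups are ordered as controls, gamma and HZE, and the darkest red lies in WT HZE at 6 and 12 h.

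Other genes of the rapid stress response were listed from knowledge of the pathway, with earlier results of these data known. Their tests and counts are therefore not independent of those results. Of 95 listed genes 10 had a single-gene probe set, among them 2 WRKY factors, 4 calmodulin-like genes and 4 ubiquitin ligase or kinase genes, and no zinc finger, ERF, CBF or jasmonate gene. In WT HZE 6 h 6 of the 10 were called higher and 0 lower by limma, where 14.1% of all genes were higher, with a median of log2 0.70. CML37, a calmodulin-like protein gene, rose by log2 2.67 (SE 0.35, limma adjusted p = 3.2e-07) with no overlap of arrays. AT1G76640, the neighbour of CML38, was called higher by 0.69 (SE 0.24, adjusted p = 0.026), but its HZE arrays were at 5.24 and 3.90 and its controls at 4.02 and 3.73. Only 1 array was thus above both controls, and 5 of the 6 called genes had arrays clear of their controls. PUB23 and PUB22, U-box ubiquitin ligases that damp immune signalling, rose by 2.62 and 1.42, and BIK1, a kinase that acts below immune receptors, by 1.19. WRKY22 was not called, at 0.36.

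The same 10 genes gave 5 calls upward in WT HZE 12 h (13.6% of genes) and 5 at 24 h (2.39%). In atm-1 after HZE limma called 0 higher at 6 h (12.2% of genes, and 0 at an unadjusted p under 0.05), where WRKY22 fell by 0.78, 3 at 12 h (8.72%) and 4 at 24 h (1.13%), with PUB22 at 1.32 and PUB23 at 1.27. Directly compared, 8 of 10 were higher in WT than in atm-1 at HZE 6 h, against 4.56% of genes, and 5 at HZE 12 h, against 4.4%. CML37 differed there by 2.53 at 6 h and PUB23 by 2.45. After gamma at 24 h 2 of 10 rose in WT (14.1% of genes), PUB23 by 1.75 and PUB22 by 0.85. That count is near the share of all genes, and nothing is read from it. At gamma 1.5, 3, 6 and 12 h in WT 0, 3, 2 and 2 were called higher (8.3%, 7.29%, 11.8% and 13.6% of genes) and 1 lower each time. At gamma 24 h 3 of 10 were higher in WT than in atm-1 (1.98% of genes), PUB23 by 1.83, PUB22 by 1.42 and WRKY22 by 1.03.

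Markers of time of day and tissue moved beside these results. GI and CCL, already named for gamma, were higher at HZE 6 h than in day 1 controls by log2 2.88 and 5.05 in WT and by 2.94 and 4.66 in atm-1. The root expansins EXPA7 and EXPA18 were lower in WT HZE 6 h by 0.58 and 0.46, and LHCB4.2 differed by -0.12 without passing the test. At gamma 24 h in WT LHCB4.2 fell by 1.76, and in atm-1 by 1.33. The part of time of day and tissue in the members' levels was not tested.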

How the data were processed

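The deposited table holds the authors' log2 values, 1 for each probe set and array, from GCOS 1.2 and RMA (affy) per the submitters' processing notes. Its RMA settings are not given in the sources used here, nor whether normalisation was joint. These values were used unchanged. Of 22810 probe sets, 64 controls were left out, and 13513 of the others had 1 annotated gene, 503 several and 8730 none. By gene ID 13436 matched the gene table (TAIR10.1, names only) and 77 kept their annotation name. The probe set with the highest mean stood for each of 147 genes with several, which left 13355 genes.

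A single model of group means over the 44 arrays was fitted in R 4.3.3 with lmFit, contrasts.fit and eBayes of limma 3.58.1 (22 residual and 7.82 prior degrees of freedom), two-sided, adjusted by Benjamini-Hochberg over all genes and called at an adjusted p under 0.05. For the members, tests were limited to gamma and unirradiated comparisons, and their HZE differences are descriptions. The other listed genes were tested in gamma and HZE comparisons alike. The members and lists were chosen with earlier results of these data known. Genes like the members were those with the highest Pearson r to their mean profile, 10 overall and 3 per member. For the listed genes, up to 3 per list with the largest change in WT HZE 6 h are named and followed, and any other listed gene was named after its values were seen. In data simulated for WT gamma 24 h against control, over 13355 genes, the fit recovered 72% of changes of 1.5-fold and 94% of those of 2-fold. In data simulated for WT minus atm-1 at gamma 24 h it recovered 68% and 95%. The changed genes were drawn at random from all genes, whose median residual standard deviation was 0.13. That of the members was 0.32 to 0.66, so these rates do not hold for them, and a member that was not called may have changed. Alternatives were cyclic loess, a minimum mean of 5, only the groups compared, controls of both days, the replicate number as a block, and each array left out. No pair of the 946 was identical, and the number of arrays limits the precision.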

Additional observations from a re-analysis of the deposited data

Results flagged for a closer look

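For 2 of the 7 genes the change after gamma rays differed between the genotypes in a direct test of that difference. STZ at 1.5 h changed by log2 2.71 more in WT than in atm-1 (limma adjusted p = 0.00885), and the arrays of WT were all above their controls while those of atm-1 were all below theirs. The STZ change in WT at 1.5 h, log2 1.85, fell as low as 0.50 among the alternatives. The difference of the changes was not itself refitted with arrays left out or with controls of both days. AT3G10930 changed by 2.41 more in WT at 1.5 h (limma adjusted p = 0.00156) and by 1.78 more at 6 h (0.0232), with atm-1 level with its controls at both times. At 6 h STZ rose in both genotypes and the difference was not called, and at 24 h the difference was called for none of the 7 genes.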

How the results depend on the processing

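Single-gene values among the tested results kept their call and direction in 200 of 232 alternatives, lost the call in 29 and turned in 3. The turned values were CML38 at WT gamma 6 h (-0.015 with controls of both days), STZ in WT minus atm-1 at gamma 24 h (-0.54 as a difference of the changes from control) and STZ in unirradiated plants (0.35 on day 1 only, chosen after seeing the data). With only the groups compared in the fit, members called in either direction were 5 at WT gamma 1.5 h, 4 at 3 h and 4 at 12 h, 4, 2 and 2 at atm-1 gamma 1.5, 6 and 12 h, and 2 and 4 for WT minus atm-1 at 6 and 12 h. With controls of both days they were 3 at WT gamma 12 h, 7 at WT gamma 24 h and 1 at atm-1 gamma 1.5 h. Among genes with a mean of at least 5 they were 1 at WT gamma 3 h, and 1 and 0 for WT minus atm-1 at 1.5 and 6 h, as members below that mean were not tested. As a difference of changes, 0 were called at gamma 24 h. In unirradiated plants 0 were called on day 1 only and 4 on day 2 only. Leaving out each array gave 1 to 2 members at WT gamma 1.5 h, 2 to 6 at WT gamma 24 h, 0 to 1 at atm-1 gamma 6 h, 1 to 4 at atm-1 gamma 24 h and 0 to 2 in unirradiated plants. Replicate numbers pair no samples by the labels, and replicate differences correlated at -0.15 to 0.13 in the 13 tested gamma pairs and at 0.061 and 0.18 between unirradiated genotypes of day 1 and day 2. With the number as a replicate block 3 members were called in unirradiated plants and 5 in place of 4 at WT gamma 24 h, and no other count changed. With crossed pairs 2 members were called for WT minus atm-1 at gamma 1.5 h, as without. The share of all genes called under each setting is not given beside these member counts, and the cause of the shifts was not tested. The median difference after HZE with controls of both days was 1.14, 1.05, 4.03, 3.52 and 2.73 in WT at 1.5, 3, 6, 12 and 24 h, and 1.67 in atm-1 at 12 h. Leaving out each array it was 2.40 to 3.04, 2.08 to 2.58 and 4.65 to 5.51 in WT at 1.5, 3 and 6 h, and 0.25 to 2.28 and 1.03 to 1.78 in atm-1 at 6 and 12 h. Cyclic loess moved the median of all genes by at most 0.0531. Counts over all genes moved by over 1.5 times in 42 of 132 alternatives, from 512 to 27 for WT minus atm-1 at gamma 24 h as a difference of changes, and from 748 to 2107 for atm-1 gamma 1.5 h with controls of both days. Signal over background is not given by these values, so the lowest levels have no detection limit here.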
